A study of Mus musculus with 6 samples.

Results

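The genes that present peptides on major histocompatibility complex (MHC) class I molecules were followed in total RNA of mouse embryonic stem cells that carry a trapped allele of Srrm2, the gene of a nuclear speckle protein that takes part in splicing. The set was fixed by name as 6 genes, H2-K1, H2-D1, B2m, Tap1, Tap2 and Tapbp, and all 6 were found among the 42450 genes of the count table. The wild-type group (WT) was the male line E14tg2a.4. The heterozygous group (Srrm2+/-) was the gene-trap line CG0630, derived from E14tg2a.4 and carrying a trap cassette in 1 Srrm2 allele. Both were grown on gelatin with LIF and moved to serum-free ESGRO medium with LIF before collection. There were 3 replicates in each group, and the study's methods describe them as cells thawed from batches frozen at different passages. The Srrm2+/- line is a single trap clone, and its passages did not overlap those of WT, so genotype, clone and passage cannot be told apart.

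A class I molecule consists of a heavy chain, encoded by H2-K1, H2-D1 and related genes, the invariant light chain beta-2-microglobulin, encoded by B2m, and a peptide. Proteasomes cut the peptides, and the TAP1-TAP2 transporter pumps them into the endoplasmic reticulum. There tapasin, encoded by Tapbp, bridges the transporter and the empty heavy chain. Interferons raise most of these genes, and NLRC5, IRF and NF-kappaB factors are among the regulators of the pathway. Pluripotent cells are known for showing little class I on their surface.

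Libraries held 54151532 to 69933465 estimated counts. Srrm2 itself was at 95.7 ± 3.94 CPM (counts scaled to library size, SD, n = 3) in WT against 59.3 ± 3.02 CPM in Srrm2+/- (SD, n = 3), a log2 change of -0.69 (SE 0.05, adjusted p 2.38e-05 by edgeR), lower in all 3 Srrm2+/- libraries. The 8 embryonic stem cell markers summed to between 5058 and 5241 CPM in WT and between 4426 and 4537 CPM in Srrm2+/-. Of them, 5 were called lower and 1 higher, while Pou5f1 and Tdgf1 were not called. Over all tested genes, 11.7% were called lower and 13.6% higher. In bulk RNA, fewer cells with a transcript and less of it per cell cannot be told apart.

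Of these genes, 5 rose in Srrm2+/- cells, and Tapbp did not pass the test. H2-D1 rose 1.32-fold, H2-K1 1.69-fold, B2m 1.96-fold, Tap1 2.69-fold and Tap2 3.02-fold. A gene was called at an edgeR adjusted p under 0.05 over all 18905 genes tested. By that rule 5 of the 6 genes were called higher and 0 lower, against 25.3% of all tested genes called in either direction and 13.6% called higher. Their median log2 change was 0.86, with a range of -0.17 to 1.60, and the median over all tested genes was -0.00254. The WT and Srrm2+/- libraries did not overlap for the same 5 genes, which was also the case for 41.4% of all tested genes.

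H2-K1 encodes a classical heavy chain (ENSMUSG00000061232, chromosome 17, 33996017 to 34000347, minus strand, build GRCm38). It was at 10.74, 8.15 and 9.71 CPM in WT and reached 15.03, 15.9 and 17.6 CPM in Srrm2+/-. Every Srrm2+/- library stood above every WT library, and the log2 change was 0.76 (SE 0.11, adjusted p 0.000908 by edgeR). H2-D1, the other classical heavy chain gene measured (ENSMUSG00000073411, chromosome 17, 35262730 to 35267499, plus strand), gave 8.43, 8.22 and 8.07 CPM in WT and 11.03, 10.3 and 11.3 CPM in Srrm2+/-. Its groups lay close together but apart, with a log2 change of 0.40 (SE 0.07, adjusted p 0.00433 by edgeR), the smallest rise among the 5 genes.

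B2m encodes the light chain that all class I heavy chains share (ENSMUSG00000060802, chromosome 2, 122147686 to 122153083, plus strand). It was at 13.5, 10.5 and 14.3 CPM in WT and at 28.6, 23.5 and 22.6 CPM in Srrm2+/-. The lowest Srrm2+/- library was well above the highest WT library, and the log2 change was 0.97 (SE 0.12, adjusted p 0.000597 by edgeR). None of the 31-base words of B2m transcripts (0%) occurred in transcripts of another gene in GENCODE M21. Reads were counted on GENCODE M24, where shared words were not checked. B2m is also the sole gene of the set that does not lie on chromosome 17, the chromosome of Srrm2.

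**Figure D1:**
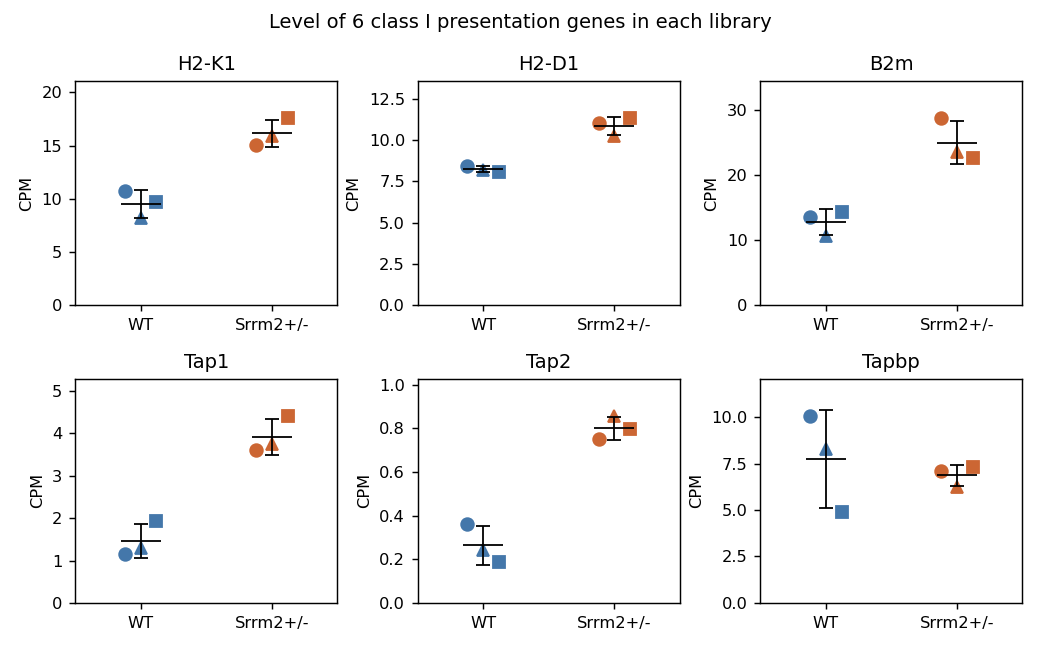
Level of the 6 genes in CPM (y axis, from 0, a separate scale in each panel) in the 3 WT and 3 Srrm2+/- libraries, with circles, triangles and squares for replicates 1, 2 and 3 and black bars for the mean ± SD. The groups stand apart for H2-K1, H2-D1, B2m, Tap1 and Tap2, while the Srrm2+/- libraries of Tapbp lie inside the WT range of 4.89 to 10.06 CPM.

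Tap1 and Tap2 encode the transporter's subunits and lie on either side of Psmb8 on chromosome 17 (34187553 to 34197225 and 34203527 to 34216321, both plus strand, ENSMUSG00000037321 and ENSMUSG00000024339). Tap1 gave 1.15, 1.30 and 1.92 CPM in WT and 3.60, 3.76 and 4.41 CPM in Srrm2+/-, a log2 change of 1.43 (SE 0.20, adjusted p 0.00104 by edgeR). Tap2 was the least abundant of the set, at 20, 14 and 10 counts in WT (0.360, 0.242 and 0.187 CPM) and 52, 59 and 49 counts in Srrm2+/- (0.751, 0.856 and 0.794 CPM). Both genes stood higher in every Srrm2+/- library. The log2 fold change of Tap2 was 1.60 (SE 0.29, adjusted p 0.00416 by edgeR), the largest and the least precise of the 5 rises. Tap2 shares 14.3% of its 31-base words with other genes, 11.3% with the antisense gene Gm15821, and Tap1 overlaps Psmb9 on the other strand, with which it shares 3.26%. A call together with a log2 change of at least 1 held for Tap1 and Tap2 of the 6 genes, against 4.3% of all tested genes.

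Tapbp (ENSMUSG00000024308, chromosome 17, 33915899 to 33929292, plus strand) encodes tapasin. It gave 10.06, 8.29 and 4.89 CPM in WT and 7.09, 6.24 and 7.31 CPM in Srrm2+/-. The WT libraries were spread wider than the whole Srrm2+/- group, and the log2 change was -0.17 (SE 0.22, adjusted p 0.632 by edgeR). The sign of that value depended on single WT libraries. It was 0.0605 (adjusted p 0.876 by edgeR) without WT replicate 1, and without WT replicate 3 it was -0.41 and past the threshold (adjusted p 0.0441 by edgeR). Tapbp overlaps Zbtb22, on the same strand and at 24.6 CPM in WT, and the antisense gene Gm19412, at 0.461 CPM in WT. Of its 31-base words, 26.9% occur in transcripts of other genes, 22.1% in Gm19412 and 2.4% in Zbtb22. The study's methods name a stranded library kit, but the strand setting of the counting is not given in the sources used here. Whether reads of antisense genes entered the counts of Tapbp, Tap2 and Tap1 is therefore not known.

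Levels of different genes were compared per length, as RPKM, the CPM divided by the exon length in kilobases. In WT the order was B2m at 14.8 ± 2.28 RPKM, H2-K1 at 3.24 ± 0.444, H2-D1 at 3.19 ± 0.0717, Tapbp at 2.13 ± 0.723, Tap1 at 0.266 ± 0.0747 and Tap2 at 0.0696 ± 0.0235 RPKM (SD, n = 3 per group). H2-K1 and H2-D1 did not differ beyond their spread in WT, with RPKM of 2.77 to 3.66 and of 3.13 to 3.27. In Srrm2+/- the order was the same, with B2m at 29.0 ± 3.79 RPKM, H2-K1 at 5.50 ± 0.438, H2-D1 at 4.21 ± 0.213, Tapbp at 1.90 ± 0.157, Tap1 at 0.716 ± 0.0785 and Tap2 at 0.212 ± 0.0138 RPKM (SD, n = 3 per group). There the libraries of H2-K1 (5.12 to 5.97 RPKM) and H2-D1 (3.98 to 4.39 RPKM) did not overlap. This difference between the groups depends on the length used, since with the longest transcript H2-K1 (4.35 to 5.73 RPKM) already lay above H2-D1 (3.84 to 4.01 RPKM) in WT. B2m exceeded H2-K1 and H2-D1 in RPKM in both groups, and Tap2 stayed below Tap1.

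Ratios of 2 genes within a library are free of library scaling, so 5 of them were compared with a two-sided exact permutation test. With 3 against 3 libraries the smallest p that this test can give is 0.1, and none could pass 0.05. The log2 ratio of H2-K1 to H2-D1 averaged 0.20 ± 0.19 in WT against 0.57 ± 0.11 in Srrm2+/- (SD, n = 3 per group), with groups that did not overlap (exact p 0.1, adjusted over the 5 ratios 0.167). The log2 ratio of H2-D1 to B2m went from -0.62 ± 0.24 to -1.19 ± 0.19 (SD, n = 3 per group), also without overlap (exact p 0.1, adjusted 0.167). For H2-K1 to B2m the groups overlapped, with a difference of -0.20 (exact p 0.3, adjusted 0.375).

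The transporter subunits gave a log2 ratio of Tap1 to Tap2 of 2.45 ± 0.83 in WT against 2.28 ± 0.17 in Srrm2+/- (SD, n = 3 per group), a difference of -0.17 inside the WT spread (exact p 0.8, adjusted 0.8). That difference changed sign without WT replicate 3, to 0.26. The log2 ratio of Tapbp to Tap1 averaged 2.37 ± 0.92 in WT against 0.81 ± 0.14 in Srrm2+/- (SD, n = 3 per group), with groups that did not overlap (exact p 0.1, adjusted 0.167).

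**Figure D2:**
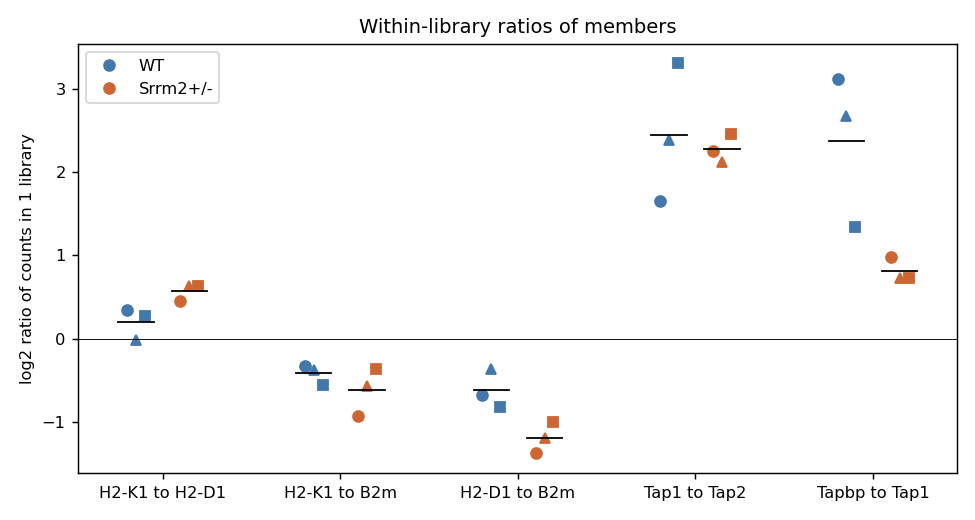
Log2 ratio of the estimated counts of 2 genes within each library (y axis, 0.5 counts added to each) for 5 pairs, in WT and Srrm2+/- libraries, with black lines for group means. The Srrm2+/- points are tight for Tap1 to Tap2 and Tapbp to Tap1, where WT points spread from 1.65 to 3.30 and from 1.34 to 3.11.

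Sequences ahead of the start sites were read because heavy chain and B2m genes share known control elements. The 250 bases before the RefSeq start were taken (GRCm38.p6), and 5 motifs were searched on both strands. These were the class I kappa B site that NF-kappaB binds, a longer and a shorter pattern bound by IRF factors (the shorter is GAANNGAAA, the longer has an A more in its first part), TGACG, the core of the X2 element that CREB and ATF proteins bind, and CCAAT, the Y element that NF-Y binds. A match to the longer IRF pattern is not by itself a match to the shorter. The kappa B site is the first run of capitals in the H2-K1 window. Capitals mark the matches in the windows of H2-K1 (chr17:34000348-34000597, minus strand) and B2m (chr2:122147437-122147686, plus strand), which are printed whole as a classical heavy chain and the light chain. The windows of H2-D1, Tap1 and Tapbp lie within annotated exons of these or overlapping genes over all 250 bases, and those of H2-D1 and Tapbp lie inside the gene spans given above.
H2-K1: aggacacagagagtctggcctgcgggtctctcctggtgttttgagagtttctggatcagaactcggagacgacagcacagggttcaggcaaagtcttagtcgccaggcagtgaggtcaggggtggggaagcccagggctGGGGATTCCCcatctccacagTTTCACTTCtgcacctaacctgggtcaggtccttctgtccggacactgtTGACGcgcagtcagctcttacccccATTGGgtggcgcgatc
B2m: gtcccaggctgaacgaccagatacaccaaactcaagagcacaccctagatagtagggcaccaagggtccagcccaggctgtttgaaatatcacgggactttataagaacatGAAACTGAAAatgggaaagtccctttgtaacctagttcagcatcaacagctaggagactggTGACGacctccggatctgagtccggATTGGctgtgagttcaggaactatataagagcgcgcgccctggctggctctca

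H2-K1 and H2-D1 held the same 4 motifs in the same order and spacing. These were the kappa B site, the shorter IRF pattern on the other strand, TGACG, and CCAAT on the other strand. H2-D1 also held CCAAT on its own strand, 53 to 49 bases before its start, beyond the end of the H2-K1 window. H2-K1 had 2 RefSeq entries, and the first was used. Over the 190 bases that the windows share at an offset of 60 bases, 166 bases (87.4%) were identical. The stretch from the kappa B site to the IRF pattern is 30 bases long in each, and H2-Q6, a further heavy chain gene called higher, carries the same arrangement. H2-Q7 also holds the kappa B letters and was not called (0.47, adjusted p 0.0604 by edgeR), while the windows of H2-Q2, H2-Q4 and H2-T22, all called higher, hold no match to them. The stretches lie at chr17:34000429-34000458 (minus strand), chr17:35262923-35262952 and chr17:35424677-35424706 (both plus strand).
H2-K1 kappa B to IRF: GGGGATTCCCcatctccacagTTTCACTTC
H2-D1 kappa B to IRF: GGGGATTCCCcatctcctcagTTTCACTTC
H2-Q6 kappa B to IRF: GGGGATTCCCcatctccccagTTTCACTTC

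The distance from TGACG to the reversed CCAAT was 25 bases in H2-K1, H2-D1 and B2m alike, which places the X2 and Y cores in the same frame on chromosomes 17 and 2. The stretches of 30 bases lie at chr17:34000359-34000388 (minus strand), chr17:35262993-35263022 and chr2:122147609-122147638 (both plus strand).
H2-K1 X2 to Y: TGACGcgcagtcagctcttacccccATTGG
H2-D1 X2 to Y: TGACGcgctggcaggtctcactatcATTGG
B2m X2 to Y: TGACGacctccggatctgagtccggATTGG

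These letters are rare before start sites. Of 27025 promoters, 22 (0.0814%) held the kappa B site and 25 (0.0925%) held this pair at that distance, a pattern chosen after the windows were read. The longer IRF pattern was in 3.04%, the shorter in 6.34%, TGACG in 17.9% and CCAAT in 34.5%. B2m held the longer IRF pattern and no match to the kappa B letters. Tap1 held TGACG and CCAAT, Tapbp held CCAAT at 2 places, and no window of Tap2 was read. The windows of Psmb8 and Erap1, called higher, and of H2-M5, called lower, held no match to any of the 5 motifs. Among tested genes with the kappa B letters, 8 of 17 were called higher (47.1%) and 1 lower, against 15.6% higher among all tested genes with a promoter in the table. H2-K1, H2-D1 and H2-Q6 are among those 8, so the share is a description and no independent support. For the spaced pair, 3 of 20 were called higher (15%) and 2 lower, and those 3 were H2-K1, H2-D1 and B2m. H2-M3, named after its values were seen, also held the pair and was not called (0.41, adjusted p 0.321 by edgeR). A match describes the letters and is not evidence that a factor was bound.

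Near-identical heavy chain genes can exchange reads in pseudo-alignment. Of the 31-base words of H2-K1, 22.8% occur in transcripts of other genes, 11.1% in H2-D1 and 9.5% in H2-Q10. For H2-D1 the share was 26.9%. The 19 other class I heavy chain genes on the list are mostly non-classical, and 14 of them were tested. Of these, 4 were called higher, 2 lower and 8 were not called, with a median log2 fold change of 0.45. For this list and those that follow, the share over all tested genes was 13.6% called higher and 11.7% lower. H2-T22, a thymus-leukaemia region gene, rose from 1.49 ± 0.189 to 3.08 ± 0.452 CPM (SD, n = 3 per group), a log2 change of 1.05 (SE 0.17, adjusted p 0.00216 by edgeR). H2-Q6 rose from 0.561 ± 0.130 to 1.30 ± 0.148 CPM (SD, n = 3 per group), a log2 change of 1.21 (SE 0.23, adjusted p 0.00479 by edgeR).

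H2-Q4 was called higher at a log2 change of 0.35 (SE 0.07), as was H2-Q2 at 0.45 (SE 0.13). The call of H2-Q2 was lost when WT replicate 1 or 2 or Srrm2+/- replicate 2 or 3 was left out (adjusted p 0.0701 to 0.101 by edgeR). H2-T22 shares 67.4% of its words with other genes, H2-Q6 51.8% and H2-Q4 53%, so their separate values are uncertain. H2-M5 went the other way, from 33.3 ± 3.12 to 24.5 ± 2.48 CPM (SD, n = 3 per group), a log2 change of -0.45 (SE 0.09, adjusted p 0.00632 by edgeR), with 2.24% of its words shared. H2-Bl was called lower at -0.34 (SE 0.10), a call lost without any library other than WT replicate 3. H2-M1, H2-M9, H2-M10.1 and H2-M11 were at 0 counts in all libraries.

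With all 21 listed heavy chain genes summed to 1 feature, the level was 80.2 ± 4.13 CPM in WT against 86.6 ± 2.77 CPM in Srrm2+/- (SD, n = 3 per group), which was not called (log2 change 0.11, SE 0.05, adjusted p 0.133 by edgeR). H2-M5 and H2-Bl, the genes that fell, made up 53.4% of that sum in WT and 37.0% in Srrm2+/-. H2-K1 and H2-D1 summed by themselves gave 0.60 (SE 0.07, adjusted p 0.00037 by edgeR). Exchange of reads between this pair does not alter their sum.

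The steps before and after the transporter were compared next. Psmb8, which lies between Tap1 and Tap2 and encodes a catalytic subunit of the immunoproteasome, the form of the proteasome induced by interferon, gave 8, 3 and 5 counts in WT against 35, 29 and 43 in Srrm2+/-. Its log2 change was 2.46 (SE 0.43, adjusted p 0.00315 by edgeR). Psmb9, the subunit gene that shares a start region with Tap1, gave 3, 51 and 19 counts in WT and 74, 86 and 56 in Srrm2+/-, and it was not called (log2 change 1.31, SE 0.61, adjusted p 0.158 by edgeR). Without WT replicate 2 it was past the threshold, at 2.40 (adjusted p 0.0214 by edgeR). Psmb10 was at 0.68 (SE 0.30, adjusted p 0.131 by edgeR), and the activator genes Psme1 and Psme2 were at 0.0653 and 0.16. Of the 5 genes of this list, 1 was called higher and 0 lower. Psmb8, the called gene, passed the count filter only through the Srrm2+/- libraries. Under the filter of 1 CPM in every library of a group it was not tested, and 0 of the list were called. The constitutive subunit genes Psmb5, Psmb6 and Psmb7 lay between -0.0209 and 0.0582 on the log2 scale, with 0 of 3 called by edgeR (0 also by DESeq2 and limma voom). None of the 3 was at an unadjusted p under 0.05.

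In the endoplasmic reticulum, Erap1, the aminopeptidase that trims peptides to length, rose from 2.46 ± 0.104 to 4.41 ± 0.298 CPM (SD, n = 3 per group), a log2 change of 0.84 (SE 0.12, adjusted p 0.00105 by edgeR). Of the 8 genes of this list, 1 was called higher and 2 lower, with a median log2 fold change of -0.0261. The chaperone gene Canx, at 1261 CPM in WT, was called lower at -0.13 (SE 0.03), and the call was lost under 5 alternatives, among them leaving out WT replicate 2 or 3 or Srrm2+/- replicate 2 or 3. Uggt1, the glucosyltransferase that tests glycoprotein folding, was called lower at -0.17 (SE 0.04). The peptide-loading chaperones Calr and Pdia3 were at 0.0893 and 0.0481, neither of them called.

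**Figure D3:**
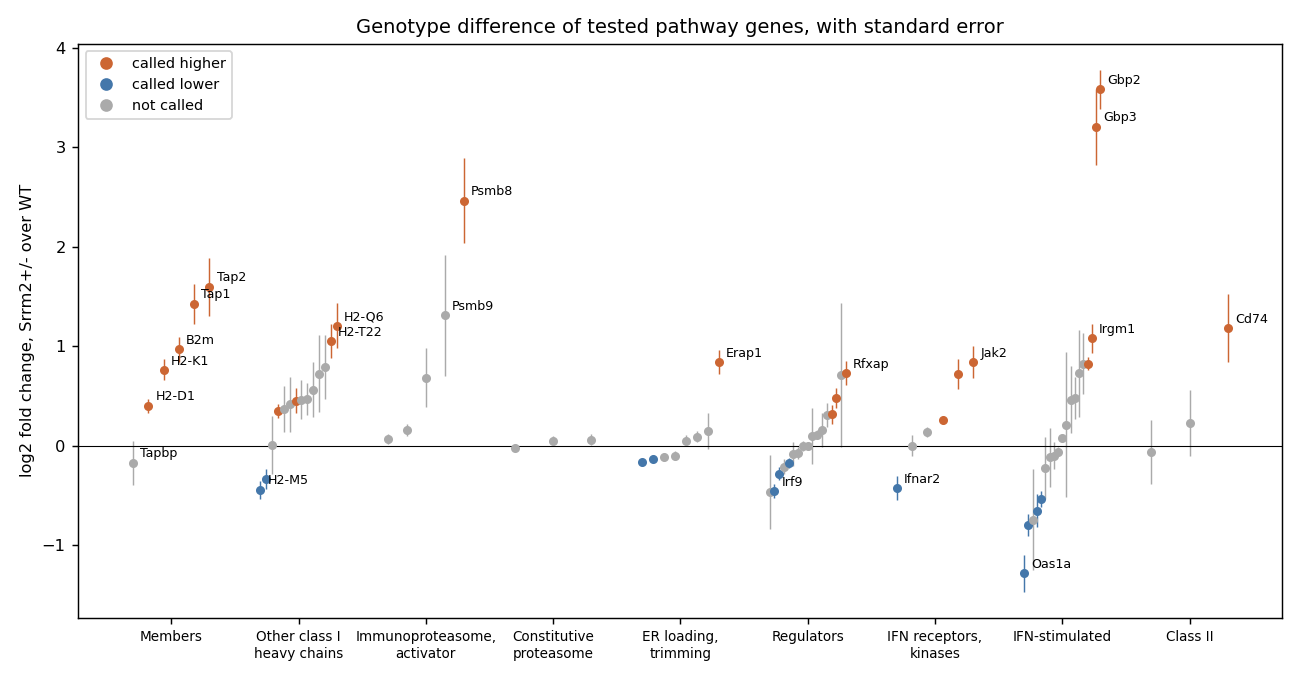
Log2 fold change of Srrm2+/- over WT (y axis) with its standard error for every tested gene of the set and of 8 pathway lists (x axis), coloured by the edgeR call. Points above 0 are higher in Srrm2+/-, with Gbp2 at 3.58, Gbp3 at 3.21 and Psmb8 at 2.46 at the top and Oas1a at -1.29 at the bottom.

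Among 18 listed transcriptional regulators of the pathway, 17 were tested, 3 were called higher and 3 lower, and the median log2 change was -0.00176. Over all tested genes, 25.3% were called. Rfxap, a subunit of the RFX complex that binds class I and class II promoters, rose from 3.07 to 5.09 CPM (log2 change 0.73, SE 0.12, adjusted p 0.00219 by edgeR). Nfkb1 rose as well (0.48, SE 0.10, adjusted p 0.00878 by edgeR), and Rela was called at 0.31 (SE 0.09, adjusted p 0.0379 by edgeR), a call lost when any 1 library was left out (adjusted p 0.073 to 0.116 by edgeR). Irf9 fell by 0.46 (SE 0.07) and Nfyb by 0.18 (SE 0.05) on the log2 scale. The call of Nfyb was lost without WT replicate 2 or 3 or Srrm2+/- replicate 1 or 2. Nlrc5, the class I transactivator, was near the limit of detection at 2, 13 and 13 counts in WT against 27, 25 and 4 in Srrm2+/- (0.71, SE 0.72, adjusted p 0.535 by edgeR). Irf1 was at 0.31 (SE 0.12, adjusted p 0.0932 by edgeR), and it passed with DESeq2 (adjusted p 0.0345) and without Srrm2+/- replicate 1 (adjusted p 0.0447 by edgeR). Nlrc5 and Irf1 are named for their roles, after their values were seen.

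Of 8 interferon receptor and kinase genes, 6 were tested, with 3 called higher and 1 lower. The share of all tested genes was 13.6% called higher and 11.7% lower. Ifngr1, a receptor chain for interferon gamma, rose by a log2 change of 0.72 (SE 0.15, adjusted p 0.00823 by edgeR), Jak2 by 0.84 (SE 0.16) and Jak1 by 0.26 (SE 0.04). Ifnar2, a receptor chain for type I interferon, was called lower at -0.43 (SE 0.12), a call lost without any library other than WT replicate 1.

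Interferon-stimulated genes went both ways. Of 26 listed, 19 were tested, with 4 called higher and 4 lower, against 25.3% of all tested genes called. Their median log2 fold change was 0.0793. Gbp2, an interferon-inducible GTPase, gave 118, 70 and 61 counts in WT against 1189, 1236 and 1150 in Srrm2+/-, a log2 change of 3.58 (SE 0.19, adjusted p 4.43e-06 by edgeR). Gbp3 followed at 3.21 (SE 0.39), or 3.83 without WT replicate 1, the GTPase gene Irgm1 at 1.08 (SE 0.15) and Bst2, which encodes the virus-tethering protein tetherin, at 0.82 (SE 0.07). Lower were Oas1a (-1.29, SE 0.18), Xaf1 (-0.80, SE 0.11), Ifi35 (-0.65, SE 0.17) and Rnf213 (-0.54, SE 0.08). The call of Ifi35 was lost without WT replicate 1 or 2 or Srrm2+/- replicate 1 or 2. Isg15, with 0 to 4 counts in WT and 10 to 15 in Srrm2+/-, and Cxcl10, with 0 to 1 and 10 to 29, had too few counts to be tested. They are named after their values were seen. With a filter of at least 1 count, 6 genes of the interferon-stimulated list were called higher and 4 lower.

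Class II genes were at low counts in both groups. Of 8 listed, 3 were tested and 1, the invariant chain gene Cd74, was called higher at 43, 35 and 39 counts against 21, 10 and 12 in WT (log2 change 1.18, SE 0.34, adjusted p 0.0339 by edgeR). That call was lost without WT replicate 2 or 3 or any Srrm2+/- library. Ciita, the class II transactivator gene, was at -0.0619 (SE 0.32, adjusted p 0.915 by edgeR). H2-Ab1, not tested, gave 1, 1 and 2 counts in WT against 6, 15 and 31 in Srrm2+/-. H2-DMa, not tested, gave 6, 5 and 6 against 0, 0 and 7, and H2-Aa, H2-Eb1 and H2-Oa had at most 6 counts. These untested genes are named after their values were seen. With a filter of at least 1 count, 2 genes of the list were called higher.

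Markers of other cell types were measured beside these genes. Of 8 blood cell markers, 7 were tested, with 0 called higher and 1, Laptm5, called lower, and they summed to 27.6 to 34.2 CPM in WT and 23.2 to 27.0 CPM in Srrm2+/-. Of the fibroblast markers, 5 of 6 tested were called higher, against 13.6% of all tested genes. Postn (8, 3 and 6 counts in WT, log2 SE 0.45) and Twist2 (0, 2 and 2 counts in WT, log2 SE 0.66) passed the count filter only through the Srrm2+/- libraries. These 2 genes could thus hardly have been called lower, and their calls are no independent support. Their sum over all 8 was 1.57 to 1.91 CPM in WT and 6.40 to 10.2 CPM in Srrm2+/-. Col1a2, a collagen gene, rose from 0.197 to 2.96 CPM (14.8-fold), Col3a1 4.85-fold, Postn 7.14-fold, Twist2 10.5-fold and Col1a1 2.19-fold, while Pdgfrb was not called. Of the 2 genes not tested, Dcn was at 0 counts in WT and at 2 to 4 in Srrm2+/-, and Lum at 0 to 3 counts in both groups. Their part in the rise of the class I genes was not tested. Endothelial markers summed to 9.17 to 10.7 CPM in WT and 6.07 to 6.99 CPM in Srrm2+/-, with 2 of 2 tested called lower and Cdh5 at 0 to 1 counts. Of the primitive endoderm markers, 0 of 3 tested were called by edgeR, and none was at an unadjusted p under 0.05. Of 2 trophoblast markers tested, Eomes was called higher, and Cdx2, not tested, was at 0 counts in WT and 5 to 17 in Srrm2+/-.

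Of the 6 genes, 5 lie on chromosome 17, at most 11.4 megabases from Srrm2, so their neighbours were examined. Within 200 kilobases of these 5 genes, 69 genes were tested, with 9 called higher and 5 lower (20.3%), against 25.3% of all tested genes called. Of the 56 that are on no pathway list, 1 was called higher and 5 lower (10.7%), with a median log2 fold change of -0.0275. The genes left out include H2-K1, H2-D1, Tap1 and Tap2, so the step from 9 to 1 follows largely from the choice of lists. It is a description and no independent support. The 56 still hold the class I pseudogenes H2-K2 (0.80) and H2-Q5 (0.89), neither called and both named after their values were seen. The gene called higher among the 56 was the lymphotoxin gene Ltb (1.13, SE 0.21, adjusted p 0.00448 by edgeR), named after its values were seen. Daxx and Rgl2, which flank Tapbp, were at -0.0219 and 0.0265, and Brd2, on the side of Tap1 towards H2-K1, was at 0.0615, none of them called. The 9 genes called higher in these windows were H2-K1, H2-D1, Tap1, Tap2, Psmb8, H2-Q2, H2-Q4, H2-Q6 and Ltb.

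**Figure D4:**
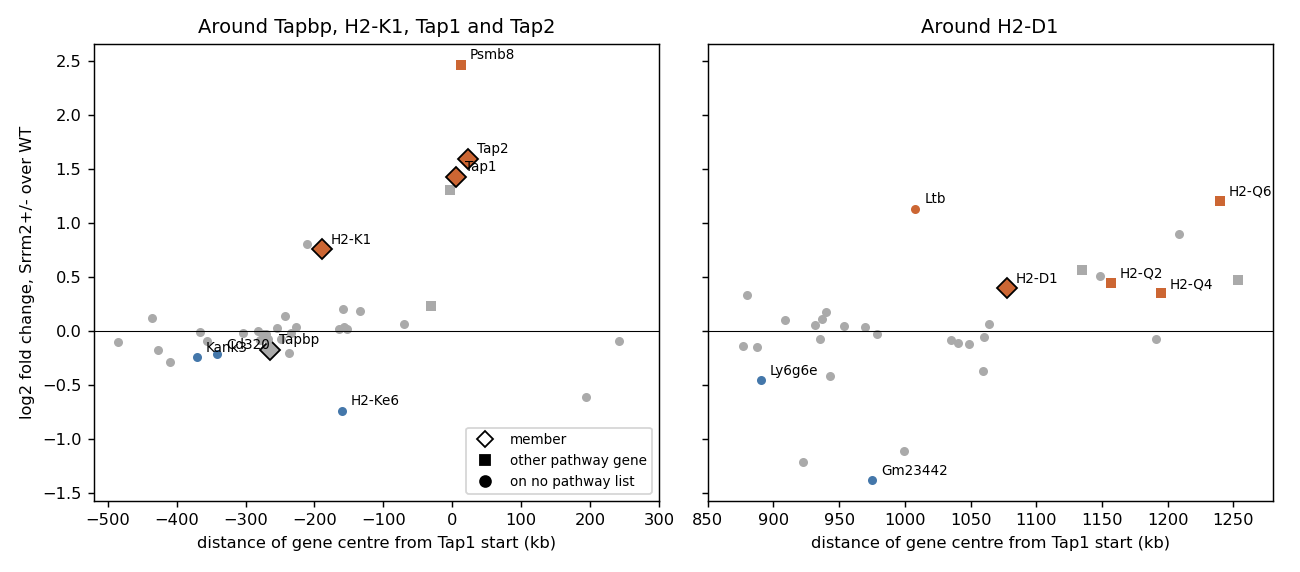
Log2 fold change of Srrm2+/- over WT (y axis) of the 69 tested genes within 200 kilobases of the class I genes of chromosome 17, against the distance of the gene's centre from the start of Tap1 in kilobases (x axis), in 2 windows. Orange marks genes called higher and blue genes called lower. Psmb8, Tap2, Tap1, H2-K1 and H2-D1 stand above 0, and genes on no pathway list, drawn as small circles, lie on both sides of it.

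The genes closest in profile to each member were found by the root mean square distance of centred log2 CPM over the 6 libraries, over tested genes whose mean log2 CPM reached 1. For H2-D1 they were the anion exchanger gene Slc4a2 (distance 0.0213) and the RNA-binding protein gene Lin28a (0.0317), and for H2-K1 Klhl9 (0.0462) and Selenoi (0.0596). B2m was closest to Lad1 (0.0852) and Ptpn18 (0.095), Tap1 to Susd4 (0.15) and the transcription factor gene Myc (0.157), Tap2 to Serpinb9b (0.107) and Bin1 (0.108), and Tapbp to Wdyhv1 (0.0989) and Zfp558 (0.122). With 2 groups, a small distance mostly reflects an equal difference between them.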

How the data were processed

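Total RNA was sequenced from 3 WT and 3 Srrm2+/- replicates, with groups and numbers as in the titles. Reads were quantified by the authors against GENCODE M24 transcripts (mm10) using kallisto 0.46.1, and the deposited values are estimated counts of each gene without normalization. The library kit was stranded, and the strand setting of the counting was not given in the sources used here. Of 42450 genes, 42156 matched GENCODE M21 on the same build, which gave symbols, positions and exon lengths.

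Estimated counts were rounded to whole numbers. Genes past filterByExpr (minimum count 10, minimum total 15) were tested with edgeR 4.0.16 (TMM, glmQLFit, glmQLFTest, two-sided, genotype as the sole term, Benjamini-Hochberg over 18905 genes). The standard error was the size of the log2 fold change divided by the square root of F. CPM used TMM-scaled library sizes, and RPKM the union of annotated exons. Deviations from group means did not correlate between libraries of the same number (-0.0294, -0.0343 and -0.0307).

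Alternatives were RLE and upper quartile scaling, TMM without short RNA and mitochondrial genes, DESeq2 1.42.0, limma 3.58.1 voom, other filters, a replicate block, each library left out, stricter calls, other sums, priors and lengths. Named genes were Srrm2, the 6 genes, called genes of the lists, up to 4 uncalled genes of high level per list, and the 2 closest profiles per gene. Other names are given as chosen after their values were seen, or because a rule on counts or neighbours asked for them. The genes and lists were chosen with earlier results of these data known. P-values measure the spread between these replicates. The values of 1 called gene of the lists are not reported here.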

Additional observations from a re-analysis of the deposited data

How the results depend on the processing

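H2-K1, H2-D1, B2m, Tap1 and Tap2 stayed higher under every alternative that tested them, and past the threshold in all but the one that adds a fold limit. Log2 fold changes were 0.66 to 0.86 for H2-K1, 0.37 to 0.44 for H2-D1, 0.85 to 1.06 for B2m, 1.29 to 1.68 for Tap1 and 1.41 to 1.89 for Tap2. Tap2 was not tested under the filter of 1 CPM in every library of a group, which left 4 genes called. When calls also needed a log2 change of 1 in size, H2-K1 (0.76), H2-D1 (0.40) and B2m (0.97) fell below the rule, 2 of the 6 genes and 8 of the 29 other called pathway genes were left, and 1153 genes were called over the table, against 4781 in the main analysis and 2779 at an adjusted p under 0.01.

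Leaving out 1 library, Tapbp lay between -0.41 and 0.0605 and changed sign when WT replicate 1 was dropped (0.0605), and the ratio of Tap1 to Tap2 from -0.56 to 0.26, reversed without WT replicate 3. The cause was not tested. Between 5 and 6 of the 6 genes were then called, 22 to 27 other pathway genes, and 3515 to 4122 genes in all, where fewer samples entered the fit. The summed heavy chains ranged from 0.0683 to 0.14. H2-K1 and H2-D1 alone gave 0.60. The difference of the ratio of H2-K1 to H2-D1 ranged from 0.26 to 0.44, of H2-K1 to B2m from -0.33 to -0.0487, of H2-D1 to B2m from -0.67 to -0.44 and of Tapbp to Tap1 from -2.08 to -1.19.

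With the longest transcript as length, WT levels became 5.09 RPKM for H2-K1, 3.92 for H2-D1 and 0.373 for Tap1, and the order of the 6 genes held. With the replicate block, 5 of the 6 genes, 24 other pathway genes and 4166 genes in all were called. The sources used here do not say whether replicates of the same number are paired. The block ended the calls of H2-Q2, Canx, Rela, Ifnar2 and Ifi35. Of the 29 other called pathway genes, 21 kept their call wherever they were tested at an adjusted p under 0.05. Low counts limit the precision for Tap2, Psmb8, Gbp3, Cd74, Postn and Twist2.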
